A study of Homo sapiens with 9 samples.

Results

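The replication-dependent histone genes supply the core and linker histones that package newly made DNA. Members were the protein-coding genes in the GENCODE annotation of the human genome (hg38) whose symbols start with H1-, H2AC, H2BC, H3C or H4C and that lie in the major histone region of chromosome 6 or the smaller one of chromosome 1. The rule found 66 of the 19111 autosomal protein-coding genes, 55 on chromosome 6 and 11 on chromosome 1. By family they were 6 linker H1 genes, 16 H2A, 17 H2B, 13 H3 and 14 H4 genes. Each gene was extended by 10 kb on each side and overlapping stretches were merged, which gave 7 clusters that together span 573 kb.

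γH2AX, the phosphorylated form of the histone variant H2AX that spreads over chromatin around stalled or broken forks, was mapped by chromatin immunoprecipitation and sequencing (ChIP-seq). The cells were a human B-lymphocyte line, labelled GM09027A and described as lymphoblastoid. The study's text gives the line another name, GM07027, and which is right is not known here. They were left untreated or treated for 24 h with 0.1 μg/mL aphidicolin (APH), an inhibitor of replicative DNA polymerases, with 2 mM hydroxyurea (HU), which depletes deoxynucleotides, or with 200 μM methyl methanesulfonate (MMS), which alkylates DNA. There were 2 independent replicates of each of the 4 conditions, all from 1 cell line, and each was deposited as 1 list of broad peaks. ChIP peaks hold no expression, so the cell type could not be checked by markers.

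Most replication-dependent histone genes are expressed in S phase, and their short messages end in a stem-loop rather than a poly(A) tail. They sit close together, and many H2A and H2B genes lie head to head on a shared promoter. Histone supply and DNA synthesis are coupled, and inhibitors such as HU lower histone messages in cycling cells. Peaks mark where γH2AX binding was called over the input and say nothing of transcription.

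On chromosome 1 the clusters ran from H2BC18 to H4C15 (chr1:149772689-149871159, 98.5 kb, 8 histone genes) and from H2BC21 to H2AC21 (chr1:149874459-149897965, 23.5 kb, 3 genes). On chromosome 6 they ran from H2AC1 to H2BC1 (chr6:25713397-25737345, 2 genes), from H1-1 to H1-2 (chr6:26007032-26066470, 9 genes), from H2BC4 to H4C8 (chr6:26076317-26295638, 219 kb, 23 genes), from H2BC11 to H2AC12 (chr6:27115897-27157562, 5 genes) and from H2BC13 to H2BC17 (chr6:27797479-27903891, 106 kb, 16 genes). The clusters held 122 protein-coding gene starts per Mb, against 6.93 per Mb on the autosomes. Their GC content was 42.6%, against 41.0% for the autosomes. Of their 100-base reference words, 87.5% occurred once in the assembled autosomes and X chromosome, against 95.3% of sampled autosomal words. The H2BC18 to H4C15 cluster stood apart with 32.5%, so most of it exists in more than 1 copy.

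The stretches below carry the points that follow. The first 3 were called in both HU lists. The first and the third were also called in 1 MMS list each. Runs of 6 or more A or T are in capitals, plus strand, hg38.
Between H2AC18 and H2AC19, chr1:149848514-149848813: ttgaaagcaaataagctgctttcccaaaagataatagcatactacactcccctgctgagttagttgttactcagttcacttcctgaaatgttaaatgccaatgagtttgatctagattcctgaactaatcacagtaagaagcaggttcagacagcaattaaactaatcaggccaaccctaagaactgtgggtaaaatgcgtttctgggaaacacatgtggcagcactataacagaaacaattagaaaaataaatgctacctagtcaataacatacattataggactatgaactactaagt
Downstream of H4C7, chr6:26245902-26246098: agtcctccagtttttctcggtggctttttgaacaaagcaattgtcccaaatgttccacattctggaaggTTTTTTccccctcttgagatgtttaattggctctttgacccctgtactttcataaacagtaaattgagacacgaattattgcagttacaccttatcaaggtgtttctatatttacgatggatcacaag
Upstream of H4C8, chr6:26288973-26289174: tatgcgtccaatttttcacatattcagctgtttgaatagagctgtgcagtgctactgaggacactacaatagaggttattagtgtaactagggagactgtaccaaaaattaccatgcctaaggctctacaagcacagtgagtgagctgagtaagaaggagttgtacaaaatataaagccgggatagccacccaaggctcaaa
The next 2 are promoters, given because one start lay nearest to a peak of both HU lists and the other pair of starts had none within 0.5 kb in any list. The other head-to-head pairs and H4C7 itself had none within 0.5 kb either. The 2 promoters are thus examples and not a contrast. TATAAA and CCAAT are in capitals on either strand. The H4C7 promoter is from RefSeq (GRCh38.p14), minus strand, ending 1 base before the start, and the stretch between the H2BC8 and H2AC8 starts is hg38, plus strand.
H4C7, chr6:26246997-26247246: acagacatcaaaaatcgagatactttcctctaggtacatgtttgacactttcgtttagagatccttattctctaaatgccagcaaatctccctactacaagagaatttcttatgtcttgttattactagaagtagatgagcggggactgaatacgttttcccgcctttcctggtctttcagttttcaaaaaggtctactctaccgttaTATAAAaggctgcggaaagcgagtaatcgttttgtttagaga
H2BC8 and H2AC8, chr6:26216689-26216920: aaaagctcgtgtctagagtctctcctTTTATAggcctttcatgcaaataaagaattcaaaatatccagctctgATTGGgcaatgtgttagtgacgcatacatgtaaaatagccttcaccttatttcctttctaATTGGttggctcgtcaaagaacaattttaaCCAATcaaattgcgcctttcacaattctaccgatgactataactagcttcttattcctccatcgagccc
RefSeq promoters were matched for 61 of the 66 genes, all but H4C1, H4C3, H2AC12, H3C11 and H3C12. In the 250 bases before the start, TATAAA on either strand was in 67.2% of histone promoters and in 11.1% of all 27305 promoters. CCAAT on either strand was in 85.2% against 33.0%. Neither motif contains the other. The H4C7 promoter held 1 TATAAA and no CCAAT, and the H2BC8 and H2AC8 stretch held 1 and 3.

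Peaks in the clusters were few. On the autosomes the untreated lists numbered 4779 and 4327 peaks, the APH lists 17658 and 14009, the HU lists 79891 and 69922, and the MMS lists 12202 and 10465. A peak was placed in a cluster when its midpoint fell there, and the count was read against the number expected at the autosomal mean density of the same list. The number of reads behind a peak is unknown, since the lists give none, and the intervals below are exact 95% Poisson intervals that cover counting error only.

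Untreated cells had 3 and 4 peaks in the clusters where 0.993 and 0.899 were expected. The relative densities were 3.02 (0.623 to 8.83) and 4.45 (1.21 to 11.4), a mean of 3.73 ± 1.01 (SD, n = 2). Both lists were above their autosomal mean, but only the interval of replicate 2 left out 1.

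APH lists had 3 peaks each where 3.67 and 2.91 were expected, a relative density of 0.924 ± 0.151 (SD, n = 2). HU lists had 25 and 21 peaks where 16.6 and 14.5 were expected, which gave 1.51 (0.975 to 2.22) and 1.45 (0.895 to 2.21) and a mean of 1.48 ± 0.0428 (SD, n = 2). MMS lists had 7 and 2 peaks where 2.54 and 2.17 were expected, a relative density of 1.84 ± 1.30 (SD, n = 2), and the replicates disagreed on the side of the mean. APH and HU replicates lay close together. The HU lists had by far the most peaks in the clusters in number, yet both HU intervals included the autosomal mean.

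All 6 treated lists had a lower relative density than both untreated lists, the nearest being 2.76 in MMS replicate 1. The difference in mean log2(relative density + 0.1) was -1.43 (two-sided exact permutation p = 0.0357, which is the lowest 6 against 2 can reach, and 0.179 after Benjamini-Hochberg adjustment over 5 comparisons). It did not pass the adjusted threshold. Each treatment alone against untreated gave an exact permutation p of 0.333, the lowest 2 against 2 can reach. HU against the 6 other libraries gave -0.249 (exact permutation p = 0.786).

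Over the 8 lists the clusters exceeded the autosomal mean by 0.994 in relative density, with 6 lists above and 2 below (exact sign-flip permutation test, two-sided, p = 0.0547; smallest possible 0.00781). Without APH replicate 1 or MMS replicate 2 the exact permutation p was 0.0469, and without untreated replicate 2 the excess was 0.643. The libraries share 1 input and fall into 4 conditions. Against autosomal windows of matched GC content the excess was 0.479 (exact sign-flip permutation p = 0.227), and HU fell to 1.04 ± 0.0172 (SD, n = 2), close to its matched mean. By bases covered, HU peaks filled 3.24% and 2.46% of the clusters, against 3.25% and 2.68% of the autosomes.

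**Figure D1:**
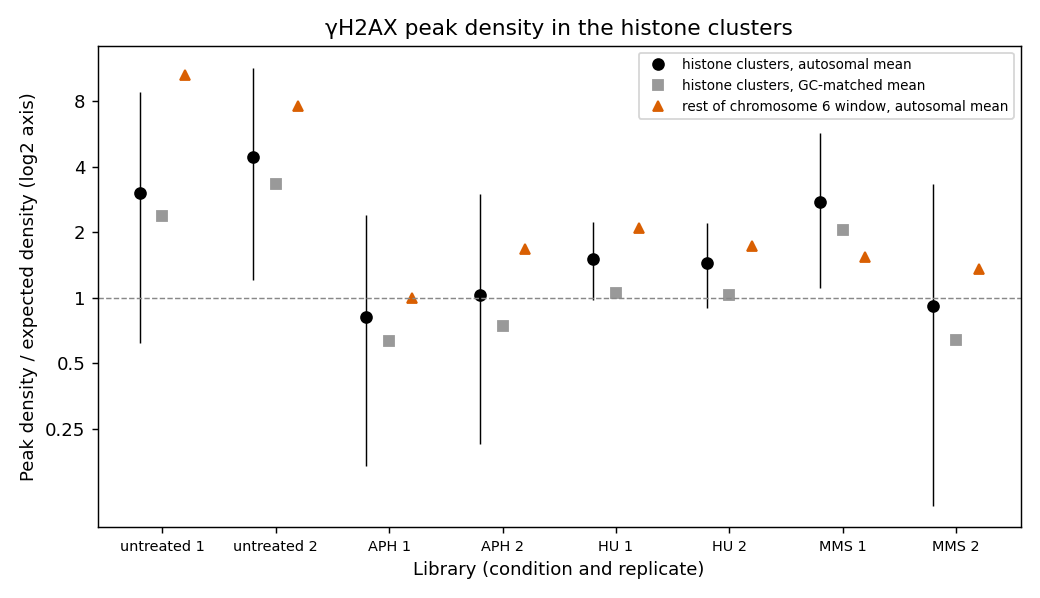
Relative γH2AX peak density per library on a log2 axis, with 1 (dashed) as the density expected. Black circles are the histone clusters against the autosomal mean with 95% Poisson intervals, grey squares the same against a GC-matched mean, and orange triangles the rest of the chromosome 6 window. The untreated triangles stand at 10.6 and 7.59, above the cluster values of 3.02 and 4.45.

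The chromosome 6 clusters were set beside the DNA around them. The rest of the chromosome 6 window, 2349 kb holding butyrophilin, zinc finger, solute carrier and olfactory receptor genes among others, had 43 and 28 untreated peaks, a relative density of 10.6 and 7.59. The APH lists gave 0.997 and 1.68 there, the HU lists 2.09 and 1.73, and the MMS lists 1.54 and 1.35. The rest of the window was above the autosomal mean by 2.44 over the 8 lists (exact sign-flip permutation p = 0.0156). The chromosome 6 clusters were lower than it by 1.11 on average, in 6 of 8 lists, which the test did not separate from 0 (exact sign-flip permutation p = 0.234). Without MMS replicate 1 the difference was -1.48 with an exact permutation p of 0.0312, and without untreated replicate 1 it was -0.313. The 2 lists that went the other way were APH replicate 1, at 1.04 against 0.997, and MMS replicate 1, at 3.01 against 1.54.

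The densest parts of the window lay outside the clusters. Of 100 kb bins, chr6:26300001-26400000 with BTN3A2 and BTN2A2 held 6 and 4 untreated peaks and 19 and 15 HU peaks, and chr6:27500001-27600000, with no protein-coding start, held 11 and 6 untreated peaks. The bin with H4C5 to H4C8, chr6:26200001-26300000, lies directly before the butyrophilin genes and held 2 and 3 untreated and 9 and 9 HU peaks. The bin chr6:26100001-26200000 with H2BC4 to H2BC7 held 0 and 2 untreated and 6 and 6 HU peaks. The HU count thus went from 2 and 2 in the bin of H1-1 to H1-2 to 19 and 15 in the first butyrophilin bin.

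**Figure D2:**
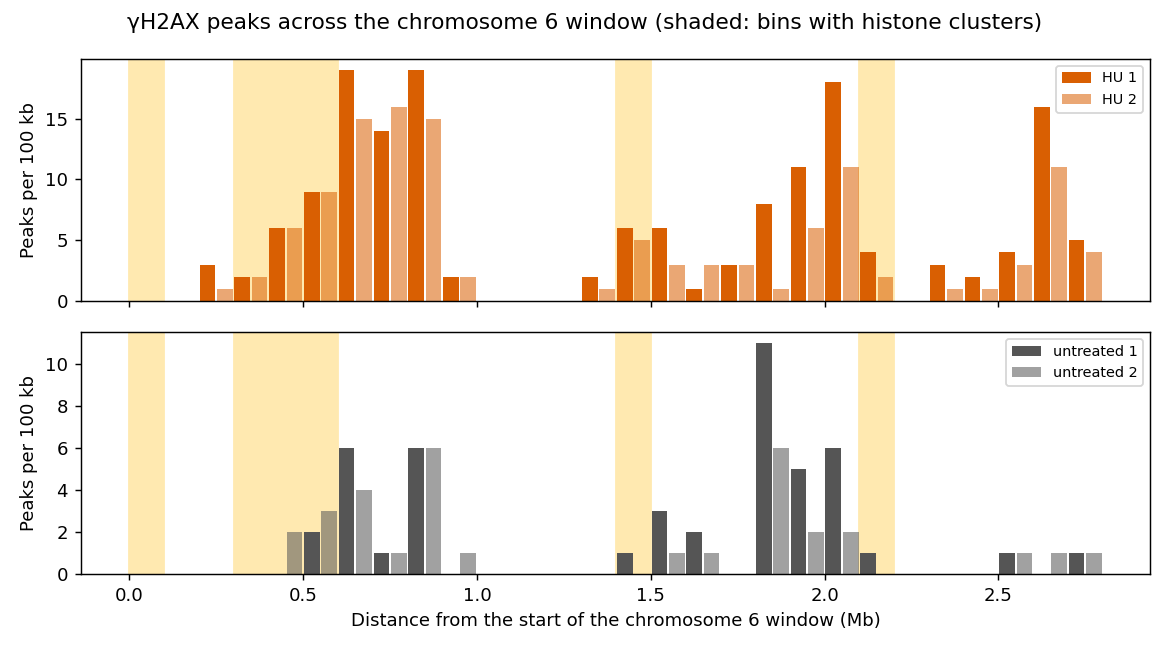
Number of γH2AX peaks in each 100 kb bin of the chromosome 6 window (horizontal axis, Mb from the window's start) for the HU lists (top) and untreated lists (bottom), with bins holding histone clusters shaded. The tallest HU bins, with 19 peaks in replicate 1, and the tallest untreated bin, with 11, are unshaded.

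Among the clusters, H2BC4 to H4C8 held most of the peaks. It had 15 and 14 HU peaks, 2.36 and 2.52 times the number expected, and so 63.0% of the 46 HU peaks in all clusters on 38.3% of their length. The untreated lists had 1 and 4 peaks in it, the APH lists 3 and 0, and the MMS lists 4 and 1. Of 54493 autosomal windows of the same length, 16% held at least as many HU peaks over both replicates, 31.0% as many APH peaks, 12.9% as many MMS peaks and 2.56% as many untreated peaks. These shares describe where the cluster stands among overlapping windows and are not a test.

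The small H2BC21 to H2AC21 cluster held 3 and 2 HU peaks where 0.681 and 0.596 were expected. Several of them lay in BOLA1, a mitochondrial iron-sulfur cluster factor gene beside H2AC21. The H2BC13 to H2BC17 cluster, with 16 histone genes, held 4 and 3 HU peaks, near the 3.08 and 2.70 expected. The H1-1 to H1-2 cluster held 1 and 1 against 1.72 and 1.51 expected, H2BC11 to H2AC12 held 1 and 0, and no list had a peak in H2AC1 to H2BC1, where at most 0.694 were expected.

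The H2BC18 to H4C15 cluster held 1 and 1 HU peaks against 2.85 and 2.50 expected, and 1 peak in MMS replicate 2. The 3 peaks overlapped one another, in an exon of the lncRNA ENSG00000290792 between H2AC18 and H2AC19, and all 300 bases shown above were unique at 100 bases. The authors removed reads of low mapping quality, and 32.5% of the cluster was unique. Counted per base with a unique 100-base word, the relative density of both chromosome 1 clusters together was 2.25 in place of 1.05 for HU, on 4 and 3 peaks, and 4.29 in place of 2.01 for MMS, on 1 peak per list. It was 0 either way for untreated and APH. The chromosome 6 clusters exceeded the chromosome 1 clusters by 1.56 in relative density over the 8 lists, in 7 of 8 (exact sign-flip permutation p = 0.0703). Without MMS replicate 2 it was 2.01 with an exact permutation p of 0.0156, and without untreated replicate 2 it was 0.978. Per unique 100-base word it was 0.599 (exact sign-flip permutation p = 0.594), with chromosome 1 above chromosome 6 for HU, at 2.25 against 1.53, and for MMS, at 4.29 against 1.72. Both untreated and both APH lists had no peak on chromosome 1, where at most 0.781 were expected.

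**Figure D3:**
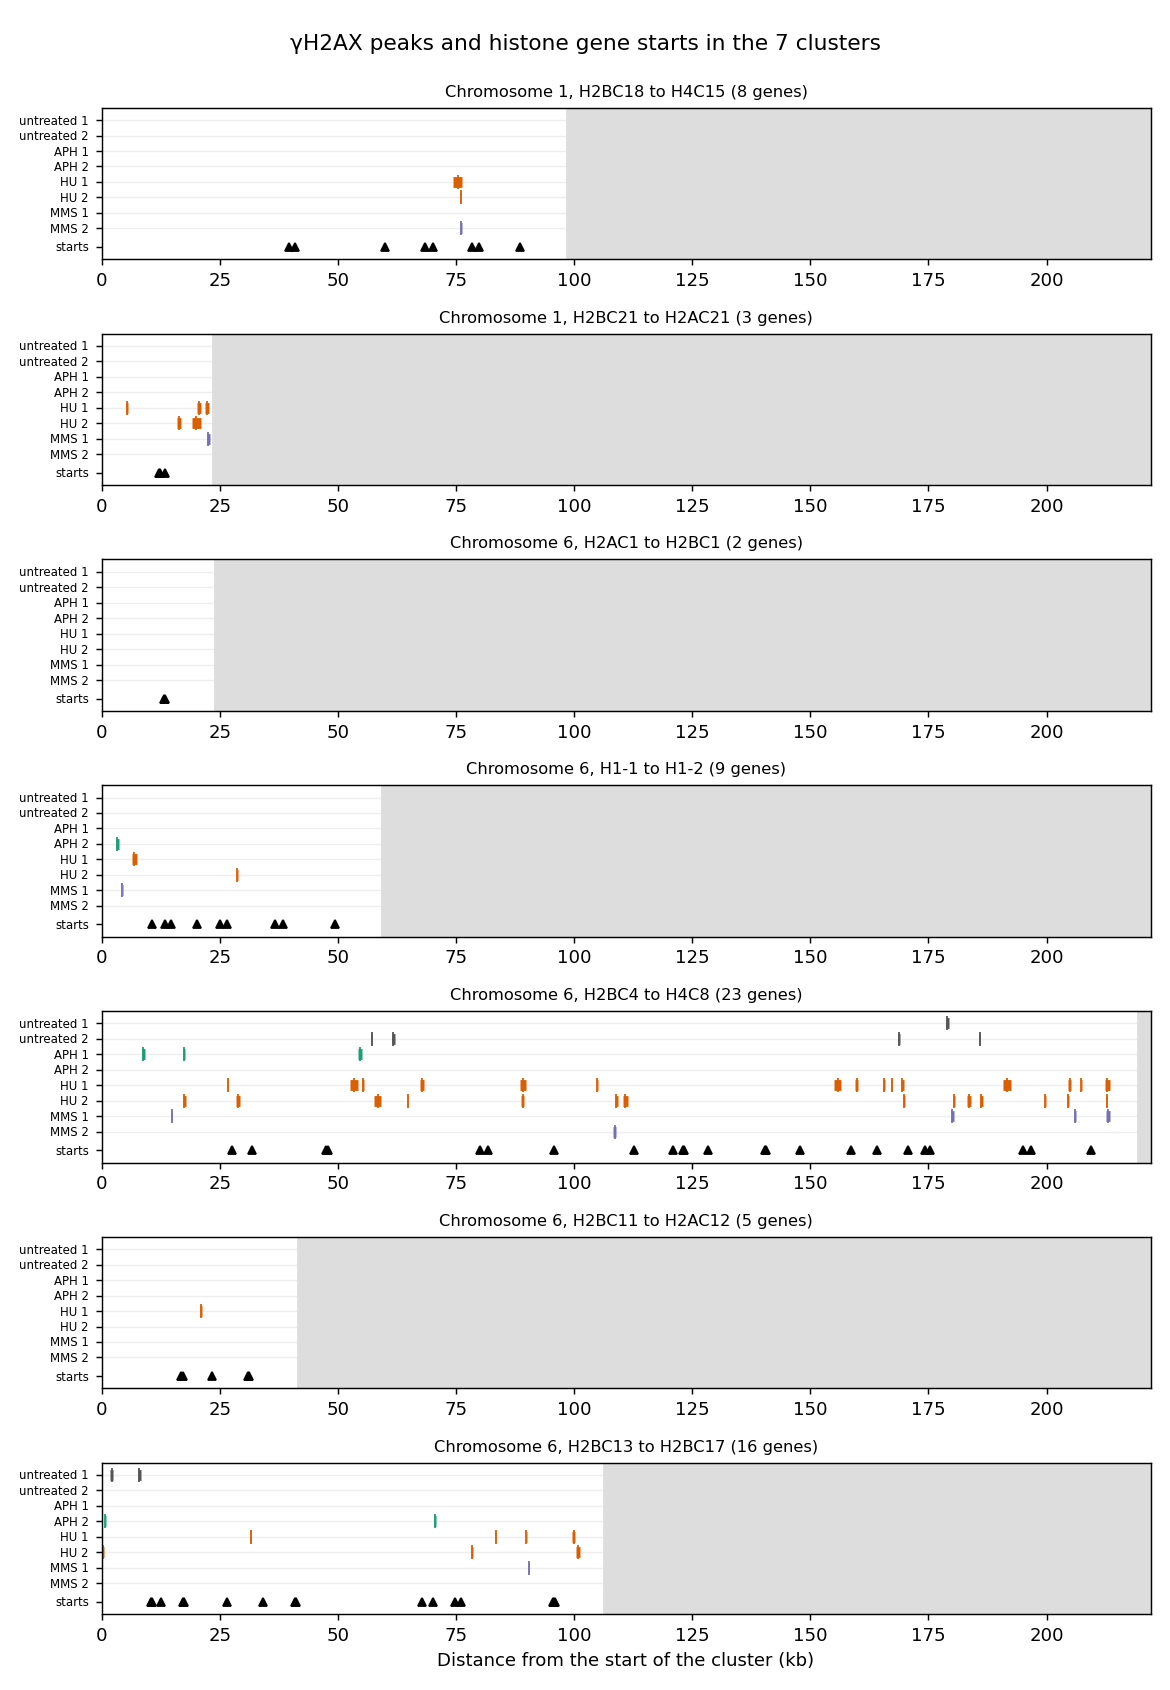
Map of the 7 clusters, each from its own start (horizontal axis, kb), with 1 row per peak list and histone gene starts as triangles. Bars are peaks to scale with a tick at the midpoint, grey is beyond the cluster, and 29 of the 46 HU peaks lie in H2BC4 to H4C8.

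Within the clusters, peaks lay away from histone gene starts and coding sequence. In all, the 8 lists placed 68 peaks in the clusters. None covered a histone gene start (0 of 68, which allows a share of up to 4.41% if peaks were independent). The share of all autosomal peaks that cover a coding start was not counted, so this 0 has no background. In APH replicate 2 and in each HU list, 3 peaks in all had their midpoint within 1 kb of a histone start. Bases within 1 kb of a histone start made up 18.1% of the clusters, so an even spread over cluster bases would put 12.3 peaks there. The median distance of the peaks to the nearest start was 4766 bp, against 3602 bp for the cluster's bases. Peaks and neighbouring genes are not independent, and these counts are given without a test.

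The bases within 1 kb of histone starts had a GC content of 48.7%, against 41.2% in the rest of the clusters, and 87.4% against 87.6% of unique 100-base words. Uniqueness was therefore alike near and far from the starts. The part of GC content in the position of the peaks was not tested.

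No list had a peak over any base of the 26.4 kb of histone coding sequence. Over the coding sequence of all autosomal genes, peaks covered 5.40% and 4.61% of bases in the HU lists, 0.797% and 0.608% in the APH lists, 0.633% and 0.453% in the MMS lists and 0.247% and 0.187% in the untreated lists. Histone genes are short, with a median length of 0.499 kb, so their coding bases lie close to a start, whereas most coding bases of other genes do not.

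The dip at the start was not particular to histone genes. Around all protein-coding starts, HU peaks covered 3.49% and 3.10% of bases within 1 kb and 12.4% and 10.5% of those between 2 and 3 kb away. Around histone starts they covered 0.295% and 0.338% within 1 kb, and 2.38% and 1.86% between 2 and 3 kb. Between 7 and 8 kb the histone values were 5.55% and 2.99%, against 10.4% and 8.72% for all genes. Histone starts were thus below the genes at each distance out to 10 kb in both HU lists. The 37 other coding genes that start in the chromosome 6 window had 0.691% and 5.10% within 1 kb and 11% and 9.22% between 2 and 3 kb. The HU replicates disagreed on these neighbours within 1 kb of the start.

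**Figure D4:**
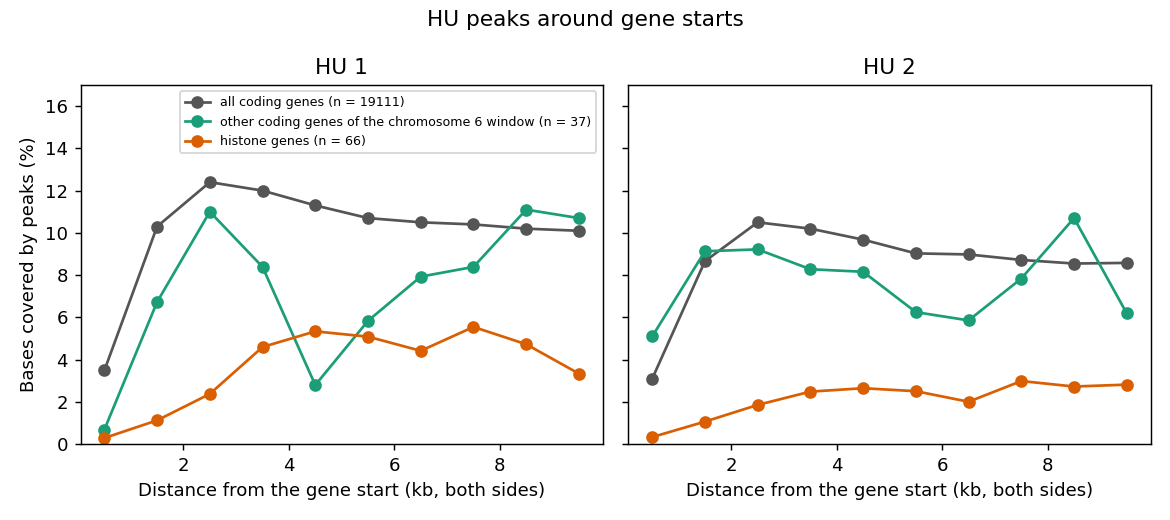
Share of bases covered by HU peaks (vertical axis, %) by distance from the gene start (kb, both sides, 1 kb bins), replicate 1 left and replicate 2 right. The line of the 66 histone genes lies below that of all coding genes in every bin, with 0.295% against 3.49% nearest the start in replicate 1.

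For counts by gene, a peak was taken if any of its bases lay in the window, wherever its midpoint fell. So counted, 11 of 66 histone genes (16.7%) had a peak of both HU replicates within 5 kb of the start. The background over all autosomal protein-coding genes was 38.1%. In single replicates 21 and 21 histone genes had one, against 48.6% and 45.7% of all genes. The other coding genes of the chromosome 6 window stood at 11 of 37 (29.7%), between both shares. The histone share was thus below the background in each HU list. These shares were not tested, since neighbouring starts share peaks.

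The 11 genes were H2AC19 and H3C15 on chromosome 1 and H4C3, H4C7, H3C7, H3C8, H2BC10, H4C8, H3C12, H2AC17 and H2BC17 on chromosome 6. Neighbours shared peaks, so they are not 11 separate events. By family the counts were 0 of 6 H1, 2 of 16 H2A, 2 of 17 H2B, 4 of 13 H3 and 3 of 14 H4 genes. Counts of this size do not tell the families apart. Requiring the peaks of both replicates to overlap left 5 genes (7.58%), against 30.0% of all genes.

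In the other conditions no histone gene had a peak of both replicates within 5 kb (0 of 66). That allows a share of up to 4.55% if genes were independent, and more where neighbours share peaks. The backgrounds were 0.895% for the untreated pair of lists, 3.82% for APH and 3.00% for MMS, each below that limit, so a difference in this count was not detectable. Single untreated lists had 5 and 2 of 66 genes, against 4.77% and 3.96% of all genes. Single APH lists had 0 and 3, against 14.4% and 11.2%, and MMS lists 2 (3.03%) and 3 (4.55%), against 12.2% and 9.53%. In single lists the histone share was thus below the background for APH and MMS too.

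Within 1 kb, 2 histone genes (3.03%), the H4 genes H4C3 and H4C7, had a peak of both HU replicates, against a background of 6.93%. None had one in the other conditions, where the backgrounds were 0.0942% for untreated, 0.267% for APH and 0.131% for MMS. Within 10 kb the HU count was 26 of 66 (39.4%) against 48.7%. In untreated cells it was 3 of 66 (4.55%) against 1.90%. For APH it was 0 of 66 against 8.33% and for MMS 0 of 66 against 6.23%. Both backgrounds exceed the 4.55% limit. That limit takes the 66 genes as independent, so it cannot set these counts apart from the backgrounds. These counts too were not tested, since neighbouring starts share peaks. Under HU the histone share was thus less than 0.5 of the background at 1 kb and at 5 kb, and nearer to it at 10 kb.

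Of the 66 genes, 30 (45.5%) had no peak of any list within 5 kb of the start, against 36.6% of all coding genes. In genome order these began with H2BC18, H3C13, H4C14, H3C14 and H4C15, all of the repeated chromosome 1 cluster, and H2AC1. They comprised 2 H1, 6 H2A, 11 H2B, 6 H3 and 5 H4 genes. Of the 12 head-to-head pairs with starts within 0.5 kb of each other, none had a peak of any list within 0.5 kb. The share of all coding starts at that distance was not counted. Within 1 kb, single HU lists reached 14.1% and 12.7% of all coding genes. The absence of peaks is therefore not read as particular to the pairs. Of the 12 pairs, 11 joined an H2A and an H2B gene, and 1 joined H3C12 and H2BC17. H2BC17 was also paired with H2AC17, whose start lies between those of H3C12 and H2BC17, so these pairs are not separate.

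**Figure D5:**
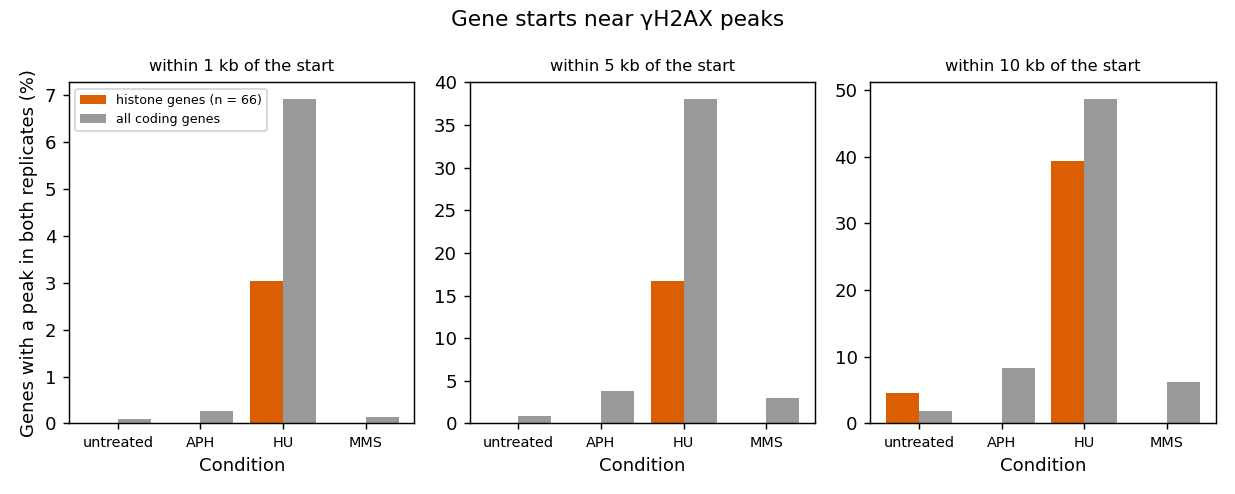
Share of genes with a peak of both replicates (vertical axis, %) within 1, 5 and 10 kb of the start, for the 66 histone genes (orange) and all autosomal protein-coding genes (grey) in each condition, each panel on its own scale. Under HU the histone share is 3.03%, 16.7% and 39.4%, against 6.93%, 38.1% and 48.7%.

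With 1 kb added to each gene body, 7 of 66 histone genes held a peak of both HU replicates, against 50.9% of all coding genes, and none did in another condition, against 3.22% for untreated, 14.5% for APH and 14.1% for MMS. The median coding gene is 27.9 kb long and the median histone gene 0.499 kb. H2AC6, a core H2A gene with a long annotated body of 15.0 kb, held 2 and 1 HU peaks with fold enrichments of up to 2.82 and 2.80. It also held 2 peaks in untreated replicate 2 and 1 in APH replicate 1. H2BC4 (37.6 kb as annotated) held 1 and 2 HU peaks, up to 2.74 and 2.73. H4C3 lies within H2BC4 and shared the values 2.74 and 2.73 with it, from 1 peak on each side of the gene.

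H2BC5 and H2BC6, neighbouring H2B genes, each had 1 HU peak per replicate in or within 1 kb of the body. In H2BC5 these overlapped one another, at 2.60 and 2.65. In H2BC6 the peaks were different ones, chr6:26181088-26181459 in the body in replicate 1 (2.60) and chr6:26184917-26185685 beside it in replicate 2 (2.65), and they did not overlap. H4C7 had 1 in each at 2.51 and 2.52. H4C8, the last gene of the cluster, held 2 and 1, up to 2.49 and 2.51, and 1 in MMS replicate 1. Of these 7 genes, 5 have annotated bodies over 3 kb long, introns included, as do 12 of all 66. No peak of any list lay in or within 1 kb of the body for 56 of 66 (84.8%). Of all coding genes, which are longer, 25.9% had none. The peaks within histone gene bodies lay in introns or untranslated parts of the annotated transcripts and not over histone coding sequence.

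HU peaks of the clusters were mostly weaker than the rest of their lists. The highest fold enrichment over the input was 3.27, in HU replicate 2 (chr6:26140959-26141255, q = 0.00803), in an intron of the lncRNA ENSG00000291336. This peak had no counterpart in replicate 1. The median fold enrichment was 2.57 in the clusters against 2.70 on the autosomes in HU replicate 1, and 2.65 against 2.77 in replicate 2. By -log10 p, 4 of 25 and 7 of 21 HU peaks in the clusters exceeded the median of their list, and 0 and 1 were among the strongest 10%. Taking the 4327 strongest peaks of each list, the relative density in the clusters was 0.556 for HU and for APH, 3.89 for untreated and 2.22 for MMS. A list of that size has 0.899 peaks expected in the clusters. These densities thus rest on very few peaks and do not tell the conditions apart. A q-value of 0.05 was passed by 14 of 25 and 7 of 21 HU peaks in the clusters, against 78.4% and 60.3% of HU peaks on the autosomes, and by 0 in the other 6 lists, where 0.164% to 1.31% passed on the autosomes.

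The other lists were divided, each with few peaks in the clusters. In MMS replicate 1 the cluster peaks were stronger than the list, with a median fold enrichment of 2.74 against 2.64 and 5 of 7 above the median -log10 p. In APH replicate 1, 3 of 3 were above it. In both untreated lists, APH replicate 2 and MMS replicate 2 only 0 or 1 were, and the cluster peaks were weaker, as under HU. Their median fold enrichments were 2.52 and 2.57 for untreated, 2.48 for APH replicate 2 and 2.45 for MMS replicate 2. The autosomal medians were 2.64, 2.61, 2.67 and 2.64, in the same order.

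Of the HU peaks in the clusters, 6 of 25 (24.0%) and 6 of 21 (28.6%) overlapped a peak of the other replicate, against 43.3% and 51% on the autosomes. The untreated, APH and MMS lists had no such peak in the clusters. Their autosomal share was not counted, so this absence has no background. HU peaks in the clusters were also narrower, with a median width of 555 bp against 764 bp on the autosomes in replicate 1. In replicate 2 it was 627 bp against 743 bp. The part of width in the lower overlap was not tested. Over all lists the peaks merged into 53 loci, of which 41 were in 1 list, 10 in 2 and 2 in 3. The same shares over the autosomes were not counted. The 2 loci in 3 lists are those between H2AC18 and H2AC19 and upstream of H4C8 whose sequences are given above.

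The 3 replicated HU loci with the highest fold enrichment were these. In BOLA1 the peaks had 2.70 and 3.03 (chr1:149894749-149895515 and chr1:149893508-149895428), in an intron, with q = 0.0365 and 0.0191. In H2BC5 they had 2.60 and 2.65 (chr6:26164962-26166239 and chr6:26165185-26165811), in an intron, with q = 0.0522 and 0.0778. Between H2AC18 and H2AC19 they had 2.58 and 2.67 (chr1:149847159-149849061 and chr1:149848480-149848842), with q = 0.0247 and 0.0537, and MMS replicate 2 had 2.45 there. Only the BOLA1 pair had a q-value under 0.05 in both replicates.

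Upstream of H4C8 the HU peaks had 2.61 and 2.62, their midpoints 3542 and 3416 bp from the start, and MMS replicate 1 had 2.53. Downstream of H4C7 they had 2.51 and 2.52, with midpoints 1199 and 907 bp from the start. The H4C7 promoter printed above lies on the other side of the gene. The central 300 bases shared by the BOLA1 peaks had a GC content of 31.3% and those shared by the H2BC5 peaks 51%. The replicated loci thus had no common base composition. Runs of 10 or more A or T were in 24.0% and 19.0% of HU peaks in the clusters, against 32.4% and 30.7% of HU peaks on the autosomes. The cluster shares rest on 6 and 4 peaks. Cluster peaks were narrower and so had fewer bases to hold a run, and the part of width was not tested.

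The genes that run histone expression lie elsewhere in the genome and are longer than histone genes. Of 18 genes for histone transcription, message 3′ end formation and their S phase control, 15 had a peak of both HU replicates in the body or within 1 kb, against 50.9% of all coding genes. For MMS it was 5 of 18 against 14.1%, for APH 3 against 14.5%, and for untreated 0 against 3.22%. NPAT (65.4 kb), the coactivator of histone genes, had 3 and 3 HU peaks so counted, and 1 and 1 under MMS. SLBP, which binds the stem-loop, had 3 and 1. HINFP (14.5 kb), a transcription factor of H4 genes, had 5 and 5, and CCNE1, the cyclin that drives entry into S phase, 3 and 2. CSTF2T had none in any list. Body counts grow with gene length, so they are not set beside those of the short histone genes.

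Of 13 histone genes outside the clusters, mostly replacement variants, 8 had a peak of both HU replicates, and the APH, MMS and untreated counts were 2, 1 and 0. The shares over all coding genes were 50.9%, 14.5%, 14.1% and 3.22%, in the same order of conditions. These counts too are for the body with 1 kb added to each side. H2AX, whose product carries the mark itself, had 1 and 1 HU peaks in or within 1 kb of its 1.59 kb body. It had none in the other lists. MACROH2A1 (65.5 kb), a large variant of H2A, had 7 and 4 HU, 3 and 2 APH, 6 and 2 MMS and 2 and 0 untreated peaks. H2AZ1, H4C16 and H2BC12L had none in any list. Of 5 other coding genes that overlap the clusters, BOLA1 alone had a peak of both HU replicates, with 2 and 3.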

How the data were processed

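γH2AX ChIP-seq peak lists of 8 libraries (4 conditions, 2 replicates each) were used. Per the labels and the study's methods, the authors aligned reads to hg38 with Bowtie2, filtered them with SAMtools, and called broad peaks per library against 1 shared input with MACS2. The input was not analysed here. The deposited columns hold a score per peak, the fold enrichment (a ratio), the −log10 p-value and the −log10 q-value given by MACS2. Of autosomal peaks, 78.4% and 60.3% pass a q-value of 0.05 in the HU lists and 0.164% to 1.31% in the other lists. Read numbers are not in the lists.

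Gene models were GENCODE release 44. In clusters and bins a peak was counted where its midpoint fell. In start windows and extended gene bodies any overlap counted. Expected counts used the autosomal mean of the same list, assembled bases only, and alternatively 10 kb windows in the same 2% bin of GC content. Conditions were compared by exact permutation tests with a pseudocount of 0.1, and regions by exact sign-flip tests over 8 libraries. The relative density was checked on simulated peak lists, and the tests only on small made-up inputs with known p-values. With so few libraries, p-values measure the spread between these libraries of 1 line. In the sign-flip tests that spread holds differences between conditions as well as between replicates. The comparison of treated with untreated libraries pooled APH, HU and MMS as 1 group. That of HU with the other libraries pooled untreated, APH and MMS. Python 3.11.15, numpy 2.4.6, pandas 2.3.3 and scipy 1.17.1 were used.

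Members and lists were chosen with earlier results of these data known. Genes were named by rule: every cluster, histone genes with a peak of both replicates in the body extended by 1 kb, the 3 strongest replicated loci per condition, up to 6 genes without a peak, and 3 fixed lists. The genes in the start windows, the loci near H4C7 and H4C8, the strongest single peak, and the 100 kb bins were named after their values were seen.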

Additional observations from a re-analysis of the deposited data

How the results depend on the processing

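The limits are few peaks (2 to 7 per list outside HU), 2 replicates, unknown read depth, and, outside HU, q-values mostly above 0.05. Where a value moved the cause was not tested, except that a q-value limit or equal numbers leave fewer peaks.

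Relative densities moved by more than the replicate SD as follows. By bases covered, untreated was 2.15, APH 0.718 and HU 0.958. With an extension of 5 kb APH was 0.708, and with 25 kb untreated was 5.38 and HU 1.67. With the stronger 50% of peaks untreated was 2.12, APH 1.16 and HU 0.723. With equal numbers of the strongest peaks APH and HU were both 0.556. Against GC-matched windows APH was 0.689 and HU 1.04. Against the same chromosome APH was 1.18, and over unique 100-base words HU was 1.61. MMS moved only under the q-value limit.

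At a q-value of at most 0.05 the untreated, APH and MMS densities were 0 and HU was 0.937. The log2 differences from untreated were then 0 for APH and MMS, 3.36 for HU (also against the other 6 libraries) and 1.12 for all treated lists, all of which had been negative. The clusters minus the autosomal mean gave -0.766 (exact sign-flip permutation p = 0.0156), and chromosome 6 minus chromosome 1 was -0.0165. Outside HU only 20 to 183 autosomal peaks per list pass this limit. Such lists were almost bound to have no peak in the clusters. The changes of sign and the p-value were thus set by the filter and say nothing about the clusters.

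The excess over the autosomal mean passed 0.05 (exact sign-flip permutation) at 25 kb (1.42, p = 0.0391), against the same chromosome (1.29, p = 0.00781) and over unique words (1.17, p = 0.0234), and ranged from 0.643 to 1.16 with 1 library left out. Chromosome 6 minus chromosome 1 passed in the exact permutation with the stronger 50% (1.12, p = 0.0312), GC matching (1.61, p = 0.0234) and the same chromosome (2.39, p = 0.0234), fell to 0.599 over unique words (p = 0.594), and ranged from 0.978 to 2.01 with 1 library left out. The chromosome 6 clusters minus the rest of the window passed by bases covered (-1.76, exact permutation p = 0.0391) and, with 1 library left out, ranged from -1.48 to -0.313. HU against the other libraries ranged, with 1 library left out, from -0.454 to 0.00775, the last without untreated replicate 2, and was -0.586 with the stronger 50% and -1.49 with equal numbers.

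Histone genes with a HU peak of both replicates near the start were 2 at 1 kb, 26 at 10 kb, 5 with overlapping peaks, 2 with the stronger 50% (background 23.1%) and 0 with equal numbers (background 1.31%, below the 4.55% that a count of 0 allows). Untreated was 3 at 10 kb. With 1 replicate alone the counts were 21 and 21 for HU, 2 to 5 for untreated, 0 to 3 for APH and 2 to 3 for MMS.

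With the replicate number as a replicate block the log2 differences from untreated stayed at -1.89 for APH, -1.26 for HU and -1.14 for MMS. The exact sign-flip p over the paired libraries was 0.5, the smallest 2 pairs allow. Same-numbered libraries did not deviate together over 2425 bins of 1 Mb (r from -0.0980 to 0.0928 across bins), so the numbers were not used as pairs, and no call changed.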
